A study of Mus musculus with 6 samples.

Results

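The respiratory chain genes encoded in the nucleus were followed in cultured mouse neural stem and progenitor cells after 48 h with PQ, after 48 h with NAC, or as control, with 2 RNA sequencing libraries in each of the 3 groups. The genes were chosen by name, with no difference between groups in the rule, though earlier results of these data were known. They are subunits of complex I (symbols starting with Nduf), complex II (Sdh), complex III (Uqcr, and Cyc1), complex IV (the nuclear Cox subunits) and complex V, the ATP synthase (Atp5). A mean expected count of at least 10 over the 6 libraries was required. Of the 17254 gene identifiers in the deposited tables, 83 carried such a symbol and 77 had the required count. They were 35 genes of complex I, 4 of complex II, 9 of complex III, 12 of complex IV and 17 of complex V. Ndufa4 was counted with complex IV, which the protein is known to join in spite of its name. Cox7a2l was counted with complex IV by its name, and was given a role of its own, apart from the other Cox genes. The count limit fell in a wide gap, between Ndufb2 with a mean of 164 counts and Cox7a1 with 8.17, and all 77 genes passed the filter on low counts of the test. The cells of all groups were grown in N2 medium with EGF and bFGF, and the PQ and NAC groups had 1 agent each. The labels spell out neither agent and give no dose, strain or age. The series text states as the purpose a shift of the redox potential inside the cells, and measurement of the gene expression that followed.

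The respiratory chain sits in the inner membrane of mitochondria. Complex I takes electrons from NADH and complex II takes them from succinate, both pass them to ubiquinone, complex III hands them on to cytochrome c, and complex IV delivers them to oxygen. Complexes I, III and IV pump protons across the membrane, and complex V uses the returning protons to make ATP. A few subunits are encoded in mitochondrial DNA and all others, including all of complex II, in the nucleus. Assembly of the complexes other than II thus needs products of both genomes. Neural stem cells are known for a strong reliance on glycolysis, and their mitochondria take part in setting the balance of self-renewal and differentiation. Electrons that leave the chain early, mostly at complexes I and III, are a main source of superoxide in cells.

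Levels are given as CPM with TMM scaling of the library totals, and as deposited FPKM, which is per length, where genes are compared with each other. Differences were tested with edgeR's quasi-likelihood test over 12813 genes, with adjusted p (Benjamini-Hochberg) under 0.05 as the threshold for a call. All folds are taken from that model. Since the labels do not call the 2 libraries of a group separate cultures, the p-values measure library-to-library spread, which may be technical. The libraries held 9680436 to 10698241 expected counts. The stem cell label was checked on its markers: Nes, Sox2, Vim, Fabp7 and Slc1a3 each had at least 2893 expected counts in every library, while Hes5 had 0 to 2 and Prom1 0 to 4. Some markers listed for other cells were well detected: Olig2 had 6377 to 9166 counts, Gja1 2966 to 4981, Map2 1838 to 3873, Cnp 1268 to 1573, Flt1 778 to 1167, Pdgfra 569 to 913 and Notch3 391 to 737. From the same lists, Higd1b, Tbx18, Cldn5, Tyrobp, Rbfox3 and Mog had 0 counts in all libraries.

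The 77 genes together took 1.00% and 1.04% of the expected counts in PQ, 0.920% and 0.940% in NAC, and 0.964% and 0.995% in control. Per length the most abundant was Atp5b, the catalytic beta subunit of ATP synthase, with 698 ± 61.6 FPKM in PQ, 641 ± 16.0 FPKM in NAC and 739 ± 16.4 FPKM in control (SD, n = 2 each). The alpha subunit gene Atp5a1, with which Atp5b forms the catalytic head, had 352 ± 8.86 FPKM in PQ, 349.6 ± 2.07 FPKM in NAC and 338 ± 14.6 FPKM in control. Of the complex III genes, Uqcrb and Uqcrh were the most abundant, with 361 ± 55.6 and 324 ± 11.4 FPKM in control, a difference within the SD of Uqcrb. The lowest per length was Ndufa11, an accessory subunit in the membrane arm of complex I, with 10.4 ± 1.10 FPKM in PQ, 8.18 ± 0.163 FPKM in NAC and 8.55 ± 0.262 FPKM in control. Its gene model has 2661 bases, against a median of 560.5 for the accessory genes of complex I. By CPM Ndufb2 was lower, with 16.68 and 15.48 CPM in control, against 23.65 and 22.86 CPM for Ndufa11. By complex, the median FPKM of the genes was 67.7 and 77.7 for complex I in the control libraries, 95.6 and 88.5 for complex II, 159 and 165 for complex III, 200 and 203 for complex IV, and 173 and 194 for complex V. The genes of complexes I and II thus had lower medians than those of complexes III, IV and V in both control libraries. The same held in the PQ libraries, where medians were 74.2 and 76.9 for complex I, 85.0 and 93.2 for complex II, and 165 to 215 for the other complexes. In the NAC libraries complex I had 69.6 and 68.4, complex II 85.2 and 87.3, and the other complexes 109 to 210.

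**Figure D1:**
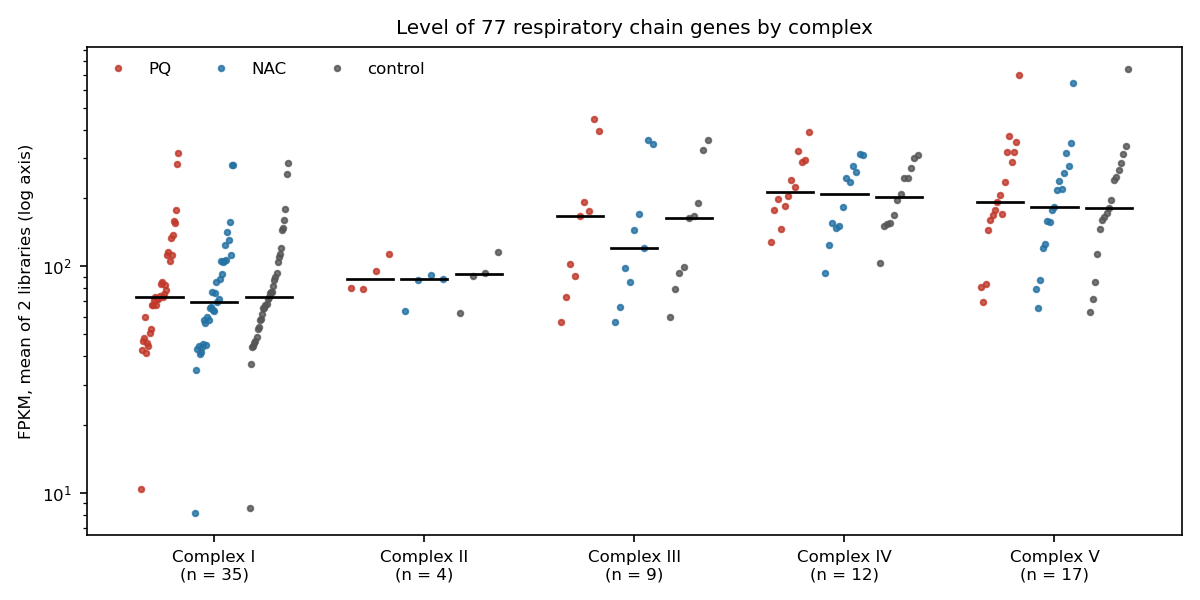
FPKM of the 77 genes by complex on a log axis, each point the mean of 2 libraries of PQ, NAC or control, with a line at the median of the genes. The medians of complexes I and II lie below those of complexes III to V, Atp5b is the highest point and Ndufa11 the lowest in each group.

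In cells given PQ, 5 of the 77 genes were higher than in control and none passed the threshold as lower. The 5 are small subunits of complexes II to V: Sdhd, Uqcrh, Cox6b1, Atp5l and Atp5md. Their folds were between 1.26 and 1.38, and no gene of the chain was called at 1.5-fold or more, against 7.77% of all genes. The 5 calls are 6.49% of the genes, against 17.9% of all genes tested in either direction, with 9.07% higher and 8.8% lower. For the lower direction, where edgeR's test called 0 genes, 4 of 77 had an unadjusted p under 0.05, against 15.1% of all genes, and DESeq2 and limma on FPKM called 0. The median log2 fold change of the 77 genes was 0.06, against 0.00 over all genes tested, and 45 of 77 estimates were above 0, against 49.6% of all genes. Without control replicate 1 the median of the 77 was on the other side of 0, at -0.04. Both PQ libraries lay above both control libraries for 21 genes and below them for 20, against 29.0% and 28.2% of all genes. The 77 estimates ran from -0.28 to 0.46, with medians of 0.06 in complex I, -0.03 in complex II, 0.00 in complex III, 0.14 in complex IV and 0.04 in complex V.

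Sdhd encodes one of the membrane anchors that tie succinate dehydrogenase (complex II) to the inner membrane and help to form its ubiquinone site; the gene lies at chr9:50596340-50603849 (mouse build GRCm38.p6, as all positions here). It had 105 and 98.2 CPM in PQ, against 85.6 and 76.0 CPM in control (log2 fold change 0.33 ± 0.10 (SE), adjusted p = 0.0278). Both PQ libraries were above both control libraries. The other anchor gene, Sdhc, had 103 and 118 CPM in PQ and 117 and 104 CPM in control, with overlapping groups. The catalytic genes of complex II did not pass either: Sdha, which holds the flavin that oxidises succinate, had 220.5 and 235 CPM in PQ, against 267 and 261 CPM in control (log2 fold change -0.21, adjusted p = 0.118). Sdhb, which carries the iron-sulfur clusters, had 120.2 and 122 CPM in PQ, against 129 and 124 CPM in control (adjusted p = 0.725).

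Uqcrh, the hinge protein of complex III beside cytochrome c1 (chr4:116066965-116075070), had 236 and 240.4 CPM in PQ, against 171 and 182 CPM in control (log2 fold change 0.43 ± 0.10 (SE), adjusted p = 0.00473). The PQ libraries lay close together and well above the control libraries. The catalytic complex III genes had estimates on the other side of 0 and did not pass: -0.15 on the log2 scale for Cyc1, the heme-carrying cytochrome c1, and -0.11 for Uqcrfs1, the Rieske iron-sulfur protein. In complex IV, Cox6b1, a subunit on the intermembrane side that contacts cytochrome c (chr7:30616971-30626114), had 146 and 159 CPM in PQ, against 124 and 113 CPM in control (log2 fold change 0.36 ± 0.11 (SE), adjusted p = 0.0234). Cox4i1, the ubiquitous form of the subunit through which ATP regulates the enzyme, had 144 and 146 CPM in PQ, against 166 and 159 CPM in control and did not pass (log2 fold change -0.16). The estimates of Cox5a and Ndufa4 were 0.10 and 0.18.

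Both complex V genes called in PQ belong to the membrane part that holds ATP synthase dimers together. Atp5l, subunit g (chr9:44913248-44920742), had 164 and 153 CPM in PQ, against 122 and 130.5 CPM in control (log2 fold change 0.33 ± 0.10 (SE), adjusted p = 0.0298). Atp5md, a small protein also named DAPIT (chr19:47083471-47090647), had 118 and 134 CPM in PQ, against 84.6 and 98.6 CPM in control (log2 fold change 0.46 ± 0.11 (SE), adjusted p = 0.00512). In both, the PQ libraries were above the control libraries. The genes of the catalytic head did not pass, with log2 fold changes of 0.03 ± 0.09 (SE) for Atp5a1 and -0.11 ± 0.09 for Atp5b. In complex I, edgeR called 0 of 35 genes in either direction, 1 higher and 2 lower had an unadjusted p under 0.05 (15.5% and 15.1% of all genes), DESeq2 called 0, and limma on FPKM called 1, Ndufa1, as higher. Ndufs1 and Ndufv1, core subunits of the NADH-oxidising end of complex I, had log2 fold changes of 0.09 and -0.17.

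The calls in PQ against control depended on single libraries. Without PQ replicate 2 none of the 5 passed in edgeR's test (adjusted p 0.0618 to 0.223), and without PQ replicate 1 only Uqcrh and Atp5md did (0.0518 to 0.187 for the others). Without control replicate 1 Atp5l missed (adjusted p = 0.111), and without control replicate 2 Cox6b1 and Sdhd did (0.117 to 0.176). With library size alone as the scaling, the 5 genes and 4 more passed as higher, Atp5e, Atp5mpl, Cox7a2 and Cox8a. With limma on FPKM the 5 passed with Atp5e, Atp5mpl, Cox7a2 and Ndufa1.

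**Figure D2:**
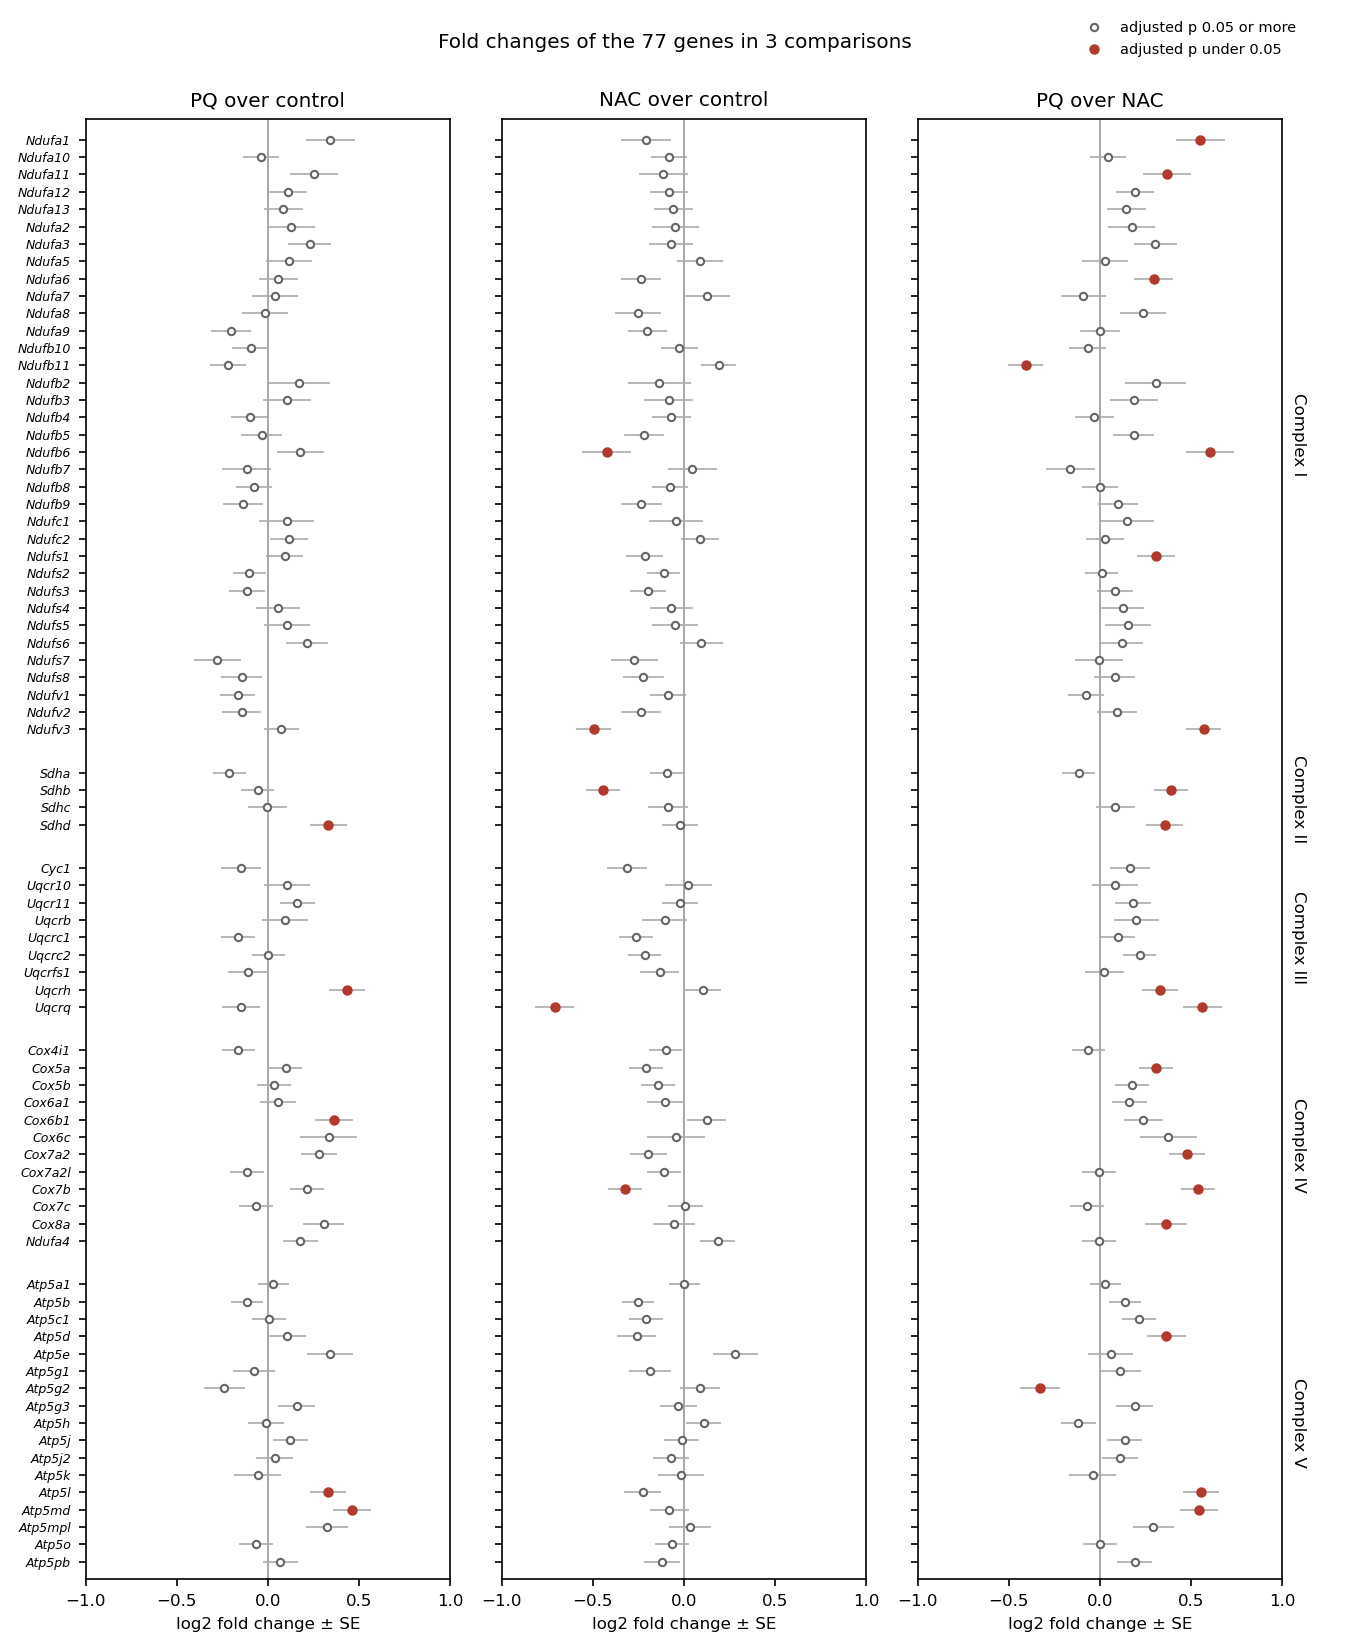
Log2 fold change of each of the 77 genes with its standard error (SE), from left to right PQ over control, NAC over control and PQ over NAC, genes grouped by complex. Filled points are genes with an adjusted p under 0.05: 5 in the first panel, all to the right of 0, 5 in the second, all to the left, and 19 in the third, of which 17 lie to the right.

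In cells given NAC, 5 genes were lower than in control and none passed as higher. They are Ndufv3 and Ndufb6 of complex I, Sdhb of complex II, Uqcrq of complex III and Cox7b of complex IV. Uqcrq changed most, by 1.64-fold, and was the 1 gene called past 1.5-fold, against 8.97% of all genes. The 5 genes are 6.49% of the 77, against 17.9% of all genes in either direction, 8.65% higher and 9.26% lower. For the higher direction, where edgeR called 0, 1 of 77 genes had an unadjusted p under 0.05, against 14.9% of all genes, DESeq2 called 0, and limma on FPKM called 1, Atp5e, the epsilon subunit of ATP synthase. Most estimates were on the lower side: 61 of 77 were below 0, against 50.3% of all genes tested, and in 36 of 77 both NAC libraries lay below both control libraries, against 28.3% of all genes. The median log2 fold change was -0.09, against 0.00 over all genes. The 77 estimates ran from -0.71 to 0.28, with medians of -0.08 in complex I, -0.09 in complex II, -0.13 in complex III, -0.10 in complex IV and -0.06 in complex V.

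Uqcrq, a small subunit of complex III beside its ubiquinone site (chr11:53427922-53430831), had 52.2 and 62.1 CPM in NAC, against 89.0 and 97.8 CPM in control (log2 fold change -0.71 ± 0.11 (SE), adjusted p = 0.000108). Both NAC libraries were far below both control libraries. The other complex III genes named here did not pass: Cyc1 had 72.3 and 81.1 CPM in NAC, against 100.4 and 90.1 CPM in control (log2 fold change -0.31, adjusted p = 0.0599), and Uqcrfs1 had an estimate of -0.13. Uqcrh, high in PQ, had 175 and 205 CPM in NAC, of which the lower value lay within the control range of 171 and 182 CPM.

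Sdhb (chr4:140961271-140979198) had 91.7 and 94.0 CPM in NAC, against 129 and 124 CPM in control (log2 fold change -0.44 ± 0.09 (SE), adjusted p = 0.00238). The libraries of each group were close together and the groups did not overlap. Its partner Sdha had 255 and 239 CPM in NAC and 267 and 261 CPM in control (log2 fold change -0.10, adjusted p = 0.517). Sdhd, high in PQ, had 77.9 and 81.3 CPM in NAC, inside the control range.

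Ndufv3, an accessory subunit on the NADH-oxidising module of complex I (chr17:31520115-31531326), had 108 and 117 CPM in NAC, against 166 and 152 CPM in control (log2 fold change -0.50 ± 0.10 (SE), adjusted p = 0.00117). The 2 groups were clearly apart. Ndufb6, an accessory subunit of the membrane arm (chr4:40270591-40279421), had 22.6 and 22.3 CPM in NAC, against 29.6 and 30.6 CPM in control (log2 fold change -0.42 ± 0.13 (SE), adjusted p = 0.0326). For Ndufb6, 39.0% of the exonic bases are shared with Smim27 on the opposite strand, and strand use in the counting is not given in the sources used here, so reads in those bases cannot be told from those of Smim27. The core genes Ndufs1 and Ndufv1 had log2 fold changes of -0.22 and -0.09 and did not pass.

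Cox7b, a small subunit of complex IV encoded on the X chromosome (chrX:106015700-106022450), had 138 and 145 CPM in NAC, against 169 and 185 CPM in control (log2 fold change -0.33 ± 0.09 (SE), adjusted p = 0.0209). Both NAC libraries were below both control libraries. Among the other complex IV genes the estimate was -0.10 for Cox4i1, -0.21 for Cox5a and 0.18 for Ndufa4, and none of these passed. In complex V edgeR called 0 of 17 genes, 1 higher and 4 lower had an unadjusted p under 0.05 (14.9% and 15.9% of all genes), and DESeq2 called Atp5b as lower. Atp5b had 1168 and 1198 CPM in NAC, against 1426 and 1394 CPM in control (edgeR log2 fold change -0.25, adjusted p = 0.0528), and Atp5a1 had an estimate of 0.00.

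Ndufv3, Sdhb and Uqcrq passed under every alternative tried in NAC against control, including each library left out. Ndufb6 and Cox7b missed without control replicate 2 (adjusted p 0.0989 to 0.139), without NAC replicate 1 (0.125 to 0.154) and without NAC replicate 2 (0.0676 to 0.138), and Ndufb6 also missed with library size alone (0.0548) or DESeq2 (0.0879) and Cox7b with limma on FPKM (0.0543 with a pseudocount of 1). Without control replicate 1, 10 genes were lower in NAC: the 5 and Ndufa6, Ndufb9, Ndufs1, Ndufv2 and Cox6c. Control replicate 1 was below control replicate 2 for 51 of the 77 genes, with a median log2 ratio of -0.07 and the widest gap for Cox6c (-0.75).

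**Figure D3:**
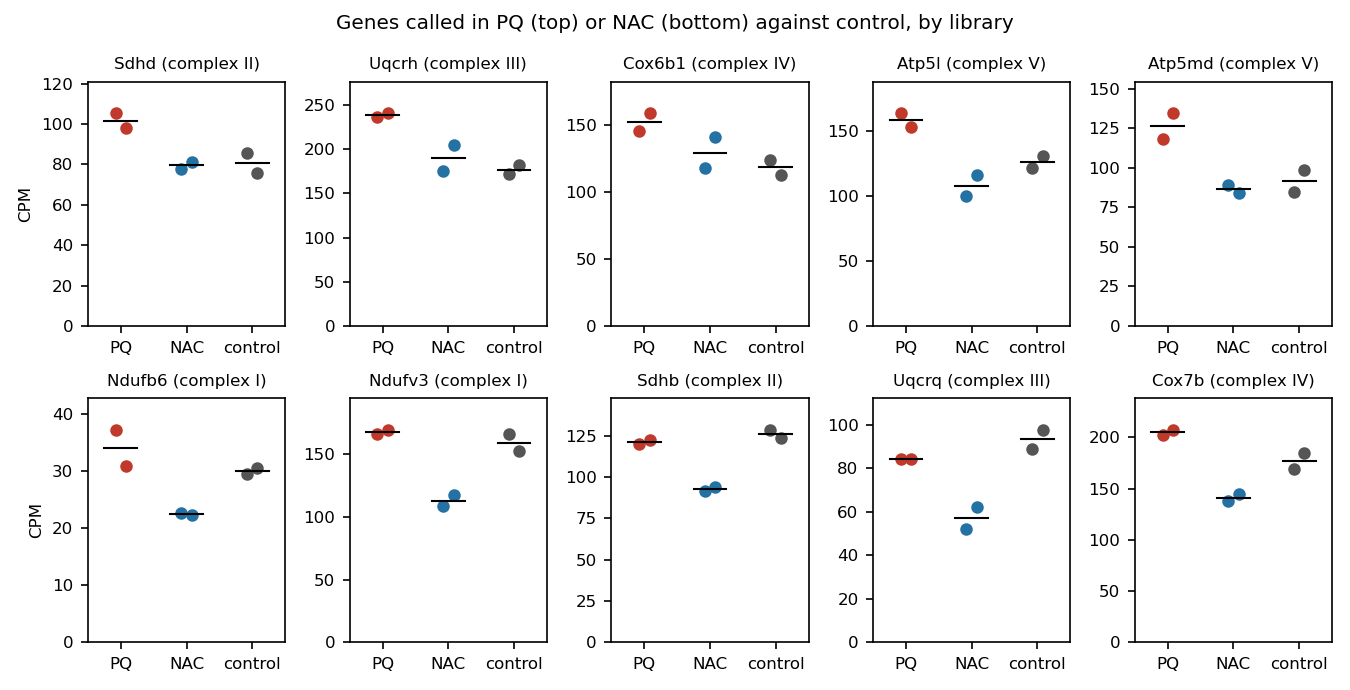
CPM by library of the 5 genes higher in PQ than in control (top) and the 5 lower in NAC than in control (bottom), with PQ, NAC and control from left to right, a line at the mean of 2 libraries and axes that start at 0. In the top row the PQ points lie above the control points, and in the bottom row the NAC points lie below them.

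The stretches just upstream of 5 of these genes are shown because they hold short motifs of regulators known to act on respiratory chain genes: the letters CCGGAAG, bound by ETS family factors such as GABP (also called NRF2, a name it shares with the unrelated redox regulator Nfe2l2), and the letters GCATGCGC, bound by NRF1. Each is the 250 bases before the annotated start of the gene, from RefSeq on GRCm38.p6, in the direction of transcription, with matches on either strand in capitals. The 5 were picked after their values were seen, for their matches among the genes called against control. Sdhd (upstream stretch chr9:50603850-50604099, minus strand), Uqcrh (chr4:116075071-116075320, minus strand) and Cox6b1 (chr7:30626115-30626364, minus strand), all higher in PQ, hold the ETS letters. Atp5l (chr9:44920743-44920992, minus strand), higher in PQ, holds both motifs, and Sdhb (chr4:140961021-140961270, plus strand), lower in NAC, holds the NRF1 letters.
Sdhd: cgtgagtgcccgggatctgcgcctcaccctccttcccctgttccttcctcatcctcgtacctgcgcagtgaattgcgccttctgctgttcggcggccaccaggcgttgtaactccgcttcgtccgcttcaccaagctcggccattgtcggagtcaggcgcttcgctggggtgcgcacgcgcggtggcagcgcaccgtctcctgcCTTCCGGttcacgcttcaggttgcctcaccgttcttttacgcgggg
Uqcrh: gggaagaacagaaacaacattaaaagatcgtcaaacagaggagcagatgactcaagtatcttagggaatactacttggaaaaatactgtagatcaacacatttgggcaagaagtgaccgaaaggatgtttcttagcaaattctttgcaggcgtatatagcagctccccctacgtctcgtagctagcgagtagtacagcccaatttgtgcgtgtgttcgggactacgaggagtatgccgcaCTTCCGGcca
Cox6b1: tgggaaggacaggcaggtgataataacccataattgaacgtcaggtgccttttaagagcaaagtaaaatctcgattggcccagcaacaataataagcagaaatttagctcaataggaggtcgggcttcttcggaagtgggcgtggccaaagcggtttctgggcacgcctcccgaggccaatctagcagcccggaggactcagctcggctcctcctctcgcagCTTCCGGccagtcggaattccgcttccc
Atp5l: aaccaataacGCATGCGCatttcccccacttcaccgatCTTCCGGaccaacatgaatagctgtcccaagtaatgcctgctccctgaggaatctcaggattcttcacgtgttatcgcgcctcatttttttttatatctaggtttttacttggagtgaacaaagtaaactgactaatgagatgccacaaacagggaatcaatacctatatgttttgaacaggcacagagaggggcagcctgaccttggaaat
Sdhb: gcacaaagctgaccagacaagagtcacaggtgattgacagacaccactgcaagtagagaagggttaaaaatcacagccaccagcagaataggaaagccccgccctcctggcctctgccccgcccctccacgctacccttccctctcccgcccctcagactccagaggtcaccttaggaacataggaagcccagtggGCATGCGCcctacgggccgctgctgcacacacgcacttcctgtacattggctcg

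Of the 77 genes, 64 had an upstream stretch in the RefSeq table. For 55 of these the first transcribed bases were found in a transcript of the gene. Some stretches lie inside the annotated gene, such as that of Atp5d (chr10:80142025-80142274, in the gene at chr10:80138698-80145828), so the shares below are not all from bases before the gene. The ETS letters were in 11 of 64 (17.2%), against 13.9% of the 10218 upstream stretches of tested genes and 7.05% of all 27025. The NRF1 letters were in 8 of 64 (12.5%), against 4.62% of tested genes and 2.32% of all. Among the 5 genes higher in PQ than in control, 4 held the ETS letters and the fifth, Atp5md, did not. In the larger set of 17 genes higher in PQ than in NAC, 15 had a stretch. The ETS letters were in 4 of these 15, and the NRF1 letters in 4. Of the 5 genes lower in NAC, 4 had a stretch, of which Sdhb held the NRF1 letters and Ndufb6 the ETS letters. The YY1 letters AAGATGGC were in 0 of 64, against 2.11% of tested genes, the hypoxia response letters ACGTG were in 20.3%, against 21.9%, and the antioxidant response letters TGACNNNGC were in 9.38%, against 12.1%, all searched on both strands. These matches describe the letters in these stretches and were not tested for binding.

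Most calls were between the treated groups, as over all genes. In PQ against NAC, 17 genes were higher in PQ and 2 were lower, 24.7% of the 77, against 30.6% of all genes in either direction, 15.5% higher and 15.1% lower. The 17 come from all 5 complexes: Ndufa1, Ndufa6, Ndufa11, Ndufb6, Ndufs1 and Ndufv3 of complex I, Sdhb and Sdhd of complex II, Uqcrh and Uqcrq of complex III, Cox5a, Cox7a2, Cox7b and Cox8a of complex IV, and Atp5d, Atp5l and Atp5md of complex V. The 2 lower genes were Ndufb11 of complex I and Atp5g2 of complex V. The estimate was above 0 in 60 of 77 genes, against 50.2% of all genes, and in 40 of 77 both PQ libraries were above both NAC libraries, against 33.1%. The median log2 fold change was 0.14, against 0.00 over all genes. This comparison shares its libraries with the 2 comparisons against control, so it is not separate support for them.

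In complex I, Ndufb6 had the largest difference and was the 1 gene of the 77 called past 1.5-fold, against 15.1% of all genes, with 37.3 and 31.0 CPM in PQ, against 22.6 and 22.3 CPM in NAC (log2 fold change 0.60 ± 0.13 (SE), adjusted p = 0.00181). Ndufv3 had 166 and 169 CPM in PQ, against 108 and 117 CPM in NAC (log2 fold change 0.57 ± 0.10 (SE), adjusted p = 0.000183). Ndufa1, a small X-linked subunit that complex I needs for assembly, had 29.6 and 28.4 CPM in PQ, against 19.2 and 20.4 CPM in NAC (log2 fold change 0.55 ± 0.13 (SE), adjusted p = 0.00447). In these 3 genes the lower PQ library was well above the higher NAC library. Ndufb11, an X-linked membrane-arm subunit, ran the other way, with 66.1 and 63.9 CPM in PQ, against 84.2 and 88.3 CPM in NAC (log2 fold change -0.41 ± 0.10 (SE), adjusted p = 0.00359), and control lay between at 77.5 and 73.6 CPM. Of the exonic bases of Ndufb11, 12.9% are shared with Rbm10 on the opposite strand. Ndufs1, the largest core subunit of complex I, had 199.9 and 188 CPM in PQ, against 163 and 149 CPM in NAC (log2 fold change 0.31, adjusted p = 0.0313). Ndufa11 (0.37, adjusted p = 0.0439) and Ndufa6 (0.29, adjusted p = 0.0475) were near the threshold, while Ndufv1 had an estimate of -0.08 and did not pass.

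Sdhb and Sdhd had log2 fold changes of 0.39 (adjusted p = 0.00398) and 0.35 (adjusted p = 0.0114) in PQ against NAC. Their control levels lay at different ends: control Sdhb was near PQ, and control Sdhd was near NAC. The same held in complex III, where Uqcrq had 84.4 and 84.2 CPM in PQ, against 52.2 and 62.1 CPM in NAC (log2 fold change 0.56 ± 0.11 (SE), adjusted p = 0.000595), with control at 89.0 and 97.8 CPM above both. Uqcrh had 236 and 240.4 CPM in PQ, against 175 and 205 CPM in NAC (log2 fold change 0.33, adjusted p = 0.0157), with control below both PQ libraries. Sdha (-0.12), Cyc1 (0.16) and Uqcrfs1 (0.02) did not pass.

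In complex IV, Cox7b had 203 and 207 CPM in PQ, against 138 and 145 CPM in NAC (log2 fold change 0.54 ± 0.09 (SE), adjusted p = 0.000257), with control between at 169 and 185 CPM. Cox7a2, the ubiquitous form of a subunit that has another form in heart and muscle, had 91.1 and 95.1 CPM in PQ, against 68.5 and 65.3 CPM in NAC (log2 fold change 0.48 ± 0.10 (SE), adjusted p = 0.00134). Both genes were higher in each PQ library than in any NAC or control library. Cox8a, the ubiquitous form of another small subunit, had 185 and 218 CPM in PQ, against 144 and 169.9 CPM in NAC (log2 fold change 0.36, adjusted p = 0.0205). Cox5a, which lies on the matrix side, had 124 and 126 CPM in PQ, against 98.4 and 104 CPM in NAC (log2 fold change 0.31, adjusted p = 0.0178). Cox4i1 and Ndufa4 had estimates of -0.06 and -0.01 and did not pass.

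In complex V, Atp5l had 164 and 153 CPM in PQ, against 99.8 and 116 CPM in NAC (log2 fold change 0.55 ± 0.10 (SE), adjusted p = 0.000396), and Atp5md had 118 and 134 CPM in PQ, against 89.1 and 84.0 CPM in NAC (log2 fold change 0.54 ± 0.11 (SE), adjusted p = 0.000687). The groups of both genes were clearly apart. Atp5d, the delta subunit of the central stalk that turns inside the catalytic head, had 134 and 156 CPM in PQ, against 105 and 121 CPM in NAC (log2 fold change 0.36, adjusted p = 0.0151). Atp5g2, one of 3 genes for the c subunit whose ring turns in the membrane, was lower, with 109.7 and 101 CPM in PQ, against 118 and 147 CPM in NAC (log2 fold change -0.33, adjusted p = 0.0306). The other c subunit genes, Atp5g1 and Atp5g3, had estimates of 0.11 and 0.19 and did not pass, and those of Atp5a1 and Atp5b were 0.03 and 0.14.

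Of the 19 calls in PQ against NAC, those of Ndufa1, Ndufb6, Ndufv3, Sdhb, Uqcrq, Cox7a2, Cox7b, Atp5l and Atp5md passed under every alternative. The others missed without at least 1 of the 4 PQ and NAC libraries: 6 of the 17 higher genes without PQ replicate 1 (adjusted p 0.0606 to 0.201), 7 without PQ replicate 2 (0.0782 to 0.301), 8 without NAC replicate 1 (0.0552 to 0.224) and 4 without NAC replicate 2 (0.0502 to 0.209). Atp5g2 missed without PQ replicate 1 (0.0654), PQ replicate 2 (0.215) or NAC replicate 2 (0.396), and Ndufb11 without PQ replicate 2 (0.0508).

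Summed over all 77 genes, the level was 10072 and 10244 CPM in PQ, 9121 and 9220 CPM in NAC, and 9783 and 10184 CPM in control. The NAC libraries were below all others, and the PQ and control libraries overlapped. Complex I summed to 2515 and 2484 CPM in PQ, 2286 and 2301 CPM in NAC, and 2371 and 2612 CPM in control. For complex II the sums were 549 and 574 CPM in PQ, 521 and 527 CPM in NAC, and 598 and 566 CPM in control, and for complex III 1249 and 1248 CPM in PQ, 1071 and 1076 CPM in NAC, and 1183 and 1227 CPM in control. Complex IV summed to 1644 and 1696 CPM in PQ, 1422 and 1481 CPM in NAC, and 1490 and 1588 CPM in control. Complex V summed to 4115 and 4243 CPM in PQ, 3821 and 3837 CPM in NAC, and 4141 and 4191 CPM in control. In each complex both NAC libraries were the lowest, and in complexes III and IV both PQ libraries were the highest. These sums were not tested, since the most abundant genes, such as Atp5b, weigh most in them. In these bulk samples, fewer cells of a type and less RNA per cell cannot be told apart.

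**Figure D4:**
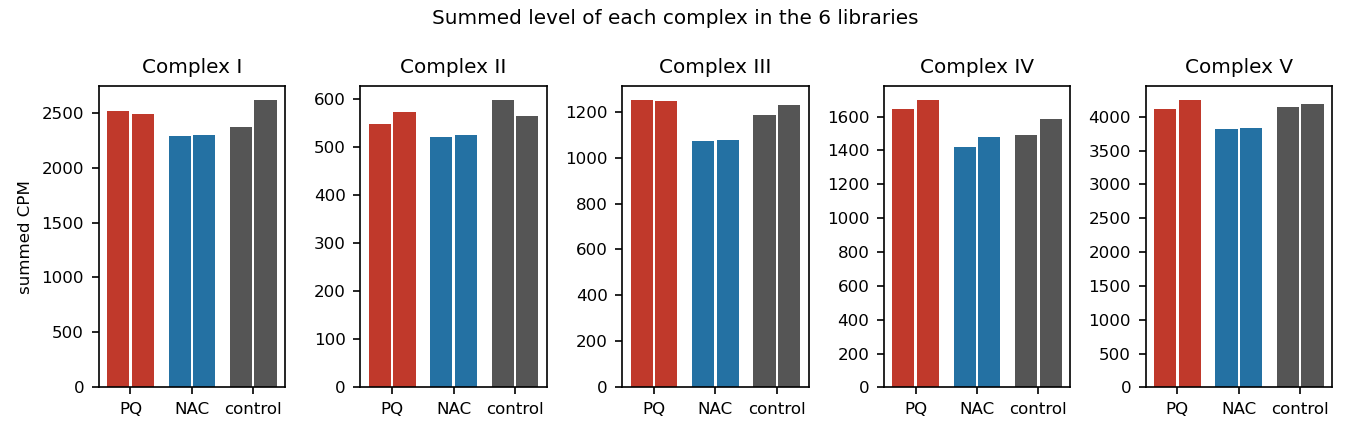
Summed CPM of the genes of each complex in every library, 2 bars each for PQ, NAC and control, with axes that start at 0. The NAC bars are the lowest of each panel, and the PQ bars are the highest in complexes III and IV.

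Core and accessory subunits were set apart by their known roles. The 7 nuclear core subunits of complex I had a median log2 fold change in PQ against control of -0.14 in the NADH-oxidising part (3 genes) and -0.13 in the part that reduces ubiquinone (4 genes), against 0.08 for the 28 accessory genes. Ndufs7, next to the ubiquinone site, had the lowest estimate of the 77 in PQ, with 28.8 and 36.2 CPM in PQ, against 41.6 and 37.3 CPM in control (log2 fold change -0.28, adjusted p = 0.16), and did not pass. The catalytic genes of complex II (median -0.13, 2 genes) and complex III (-0.13, 2 genes) were on the same side, and the membrane anchors of complex II (0.16, 2 genes) and accessory genes of complex III (0.11, 5 genes) on the other. In complex V the medians were 0.03 for the head and central stalk (5 genes), 0.03 for the peripheral stalk (4 genes), -0.08 for the c subunit genes (3 genes) and 0.32 for the other membrane subunits (5 genes). With NAC, the medians against control were -0.22 and -0.21 for the core parts of complex I and -0.07 for its accessory genes, -0.27 for the catalytic genes of complex II, and -0.22 for those of complex III. These are descriptions of few genes each, and no difference between roles was tested.

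Gene length differed between these roles. In complex I the core genes had gene models of 1472 bases at the median and the accessory genes of 560.5 bases. The models of the 77 genes had a median length of 679 bases (349 to 2859), against 2864 bases over all genes tested. Over the 77 genes, length and log2 fold change had a Spearman correlation of -0.44 in PQ against control, -0.43 in NAC against control and -0.08 in PQ against NAC, where over all genes tested it was -0.02, 0.09 and -0.09. The first 2 values share the control libraries. Length went with the difference between control libraries too, with a correlation of 0.27 over the 77 genes for replicate 1 over replicate 2, against 0.18 for the NAC libraries and -0.07 for the PQ libraries. In the 43 genes of at most 750 bases, the median log2 fold change was 0.11 in PQ and -0.05 in NAC against control, and over all 400 genes of that length it was 0.03 and -0.06. In the 24 genes of 750 to 1500 bases it was -0.05 in PQ and -0.20 in NAC, against -0.01 and -0.06 over all 1728 genes of that length. The part of gene length in the difference between core and accessory genes was not tested.

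**Figure D5:**
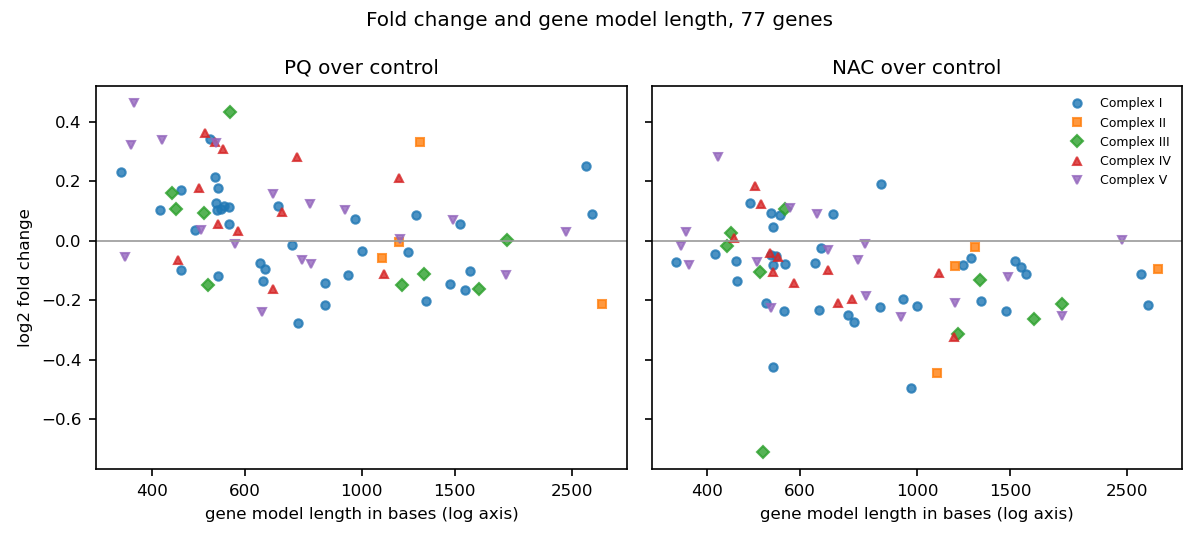
Log2 fold change of the 77 genes against the length of the gene model in bases on a log axis, for PQ over control (left) and NAC over control (right), with complexes I to V as symbols. The Spearman correlation is -0.44 on the left and -0.43 on the right, where Uqcrq (511 bases) is the lowest point.

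The tissue forms of complex IV subunits were nearly silent in all groups. Cox7a1, the heart and muscle form of the subunit also made by Cox7a2, had 11 and 20 expected counts in PQ, 3 and 3 in NAC, and 7 and 5 in control. Both PQ libraries were above all others, at counts too low for the choice of genes here. Cox6a2, another muscle form, had 1 and 1 in PQ, 2 and 1 in NAC, and 4 and 6 in control. Cox6b2, a testis form, had 3 and 0 in PQ, 0 and 0 in NAC, and 3 and 0 in control. Cox4i2, the form known to replace Cox4i1 in low oxygen, had 0 and 1 in PQ, 1 and 0 in NAC, and 0 and 0 in control. Ndufa4l2, a relative of Ndufa4 known as a hypoxia target, had 2 and 0 in PQ, 2 and 0 in NAC, and 1 and 2 in control, and Cox8b had 0 to 2 counts in any library. Cox7b2 and Cox8c were not analysed here. The ubiquitous forms Cox4i1, Cox6a1, Cox6b1, Cox7a2, Cox7b and Cox8a carried the signal, each with at least 65.35 CPM in every library.

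Genes that build or feed the chain were read from lists of other members of the pathway. Of all genes tested, 9.07% were higher and 8.8% lower in PQ than in control, and 8.65% higher and 9.26% lower in NAC. These shares stand beside the counts in every list here and below, none of which was tested as a set. Among 51 assembly factors of the 5 complexes, 1 was higher and 1 lower in PQ than in control: Atpaf1, which helps to form the catalytic head of ATP synthase, had 31.2 and 27.5 CPM in PQ, against 22.9 and 20.8 CPM in control (log2 fold change 0.42 ± 0.14 (SE), adjusted p = 0.038), and Lyrm7, which delivers the Rieske protein, had 3.23 and 3.04 CPM in PQ, against 4.65 and 6.34 CPM in control (-0.81 ± 0.27, adjusted p = 0.0489). In NAC against control 1 factor was higher and 5 were lower. The higher one was Uqcc3 of complex III, with 16.8 and 16.6 CPM in NAC, against 11.1 and 8.83 CPM in control (0.74 ± 0.18, adjusted p = 0.00596). The lower ones were Lyrm7 (-1.25, adjusted p = 0.00463), Sdhaf1, which serves the iron-sulfur clusters of Sdhb (-0.45, adjusted p = 0.0212), Cox20 (-0.40, adjusted p = 0.0316), Timmdc1 (-0.37, adjusted p = 0.0443) and Tmem70 (-0.34, adjusted p = 0.0497). Lyrm7 was thus lower in both treated groups, which share the control libraries.

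Ubiquinone, the carrier between the complexes, is made by the Coq enzymes. Of 14 genes for its synthesis and for electron carriers, 3 were lower in NAC than in control: Coq3, a methyltransferase, had 14.9 and 13.6 CPM in NAC, against 26.3 and 25.2 CPM in control (log2 fold change -0.85 ± 0.14 (SE), adjusted p = 0.000288), Coq8b had a log2 fold change of -0.60 (adjusted p = 0.00302) and Coq5 of -0.44 (adjusted p = 0.00992). The estimate for Coq3 was farther from 0 than that of any of the 77 subunit genes in NAC against control. In PQ 1 of the 14 was higher than in control, Coq10b (0.43 ± 0.14, adjusted p = 0.0369). Of 17 genes of the citric acid cycle and pyruvate dehydrogenase, 1 was lower in PQ, Suclg2, the subunit of succinyl-CoA ligase that pairs with GDP, with 40.0 and 40.0 CPM in PQ, against 59.1 and 60.3 CPM in control (-0.58 ± 0.10, adjusted p = 0.000804). In NAC Suclg2 was higher, with 78.6 and 74.1 CPM (0.36 ± 0.10, adjusted p = 0.0175), and 3 genes were lower: Pdhb of pyruvate dehydrogenase (-0.39, adjusted p = 0.00994), Ogdh (-0.32, adjusted p = 0.0183) and citrate synthase, Cs (-0.27, adjusted p = 0.0426).

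Of 16 regulators of mitochondrial gene expression, 1 was higher and 5 were lower in PQ than in control. The lower ones included Ppargc1b, a coactivator of mitochondrial genes, with 4.89 and 4.94 CPM in PQ, against 11.2 and 7.79 CPM in control (log2 fold change -0.95 ± 0.23 (SE), adjusted p = 0.00699), and Nrf1, with 35.9 and 36.02 CPM in PQ, against 43.7 and 46.9 CPM in control (-0.33 ± 0.11, adjusted p = 0.044). The others were Tfb1m (-0.74, adjusted p = 0.01), Gabpb2, a subunit of GABP (-0.37, adjusted p = 0.0147), and Tfam, which packs mitochondrial DNA and starts its transcription (-0.34, adjusted p = 0.0462). Twnk, the mitochondrial DNA helicase, was higher (0.38 ± 0.12, adjusted p = 0.0378). In NAC against control 1 was higher, Twnk (0.45, adjusted p = 0.0139), and 2 were lower, Ppargc1b (-0.74, adjusted p = 0.0256) and Tfb1m (-0.60, adjusted p = 0.0287). The median over the 16 regulators was -0.18 in PQ and -0.06 in NAC against control.

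Hypoxia-induced genes and markers of other cell types moved alongside. Of 15 hypoxia-induced genes 5 were lower in PQ and 14 in NAC than in control, with summed levels of 10530 and 8520 CPM in PQ, 5151 and 6276 CPM in NAC, and 11570 and 11160 CPM in control. Astrocyte markers were higher in PQ for 3 of 8, and in NAC for 5 of 8 with 1 lower, with sums of 695 and 653 CPM in PQ, 612.5 and 611 CPM in NAC, and 542.5 and 552 CPM in control. Gja1 weighs most in these sums, which do not follow the medians. The median log2 fold change of the 8 against control was 0.26 in PQ and 1.13 in NAC. In PQ against NAC 2 of the 8 were higher and 5 lower. Of 12 neural stem cell markers 10 were tested. In PQ against control 1 was higher (Nes) and 4 were lower, with Slc1a3 and Sox2 as examples, with 7 of 10 estimates below 0 and a median log2 fold change of -0.27. In NAC against control 1 was higher (Slc1a3) and 3 were lower (Vim, Sox2 and Nes), with 7 of 10 estimates above 0 and a median of 0.08. Their sums, in which Vim weighs most, do not follow these medians: they were 6929 and 6644 CPM in PQ, 4678 and 4596 CPM in NAC, and 6402 and 6313 CPM in control. Sums are over the markers tested. Of the 14 pericyte and mural cell markers, 6 were tested, with 3 higher in PQ (Acta2, Myh11 and Notch3) and 2 higher in NAC (Acta2 and Myh11), with sums of 89.5 and 104 CPM in PQ, 58.9 and 85.2 CPM in NAC, and 83.1 and 66.8 CPM in control. Notch3 weighs most in these sums, and the other genes called were near the floor. Acta2 had 10.02 and 21.05 counts in PQ, 10.02 and 13.04 in NAC, and 1 and 3.01 in control. Myh11 had 23.1 and 69.25 counts in PQ, 20.05 and 61.16 in NAC, and 9.03 and 5.02 in control, with wide gaps between the libraries of each treated group. From the same list, Zic1 had 134 to 208 counts in a library and Cspg4 58 to 78, while Pdgfrb, Higd1b and Tbx18 had 0 or 1 in any library. Of 8 neuron markers 4 were tested, with 1 higher and 1 lower in each treated group (sums of 197 and 187 CPM in PQ, 363 and 323 CPM in NAC, and 199 and 211 CPM in control). Map2 weighs most in these sums, with 3873 and 3211 counts in NAC, against 1916 and 1961 in control. Tubb3 had 6 and 7.67 counts in NAC, against 22.88 and 40.95 in control. The median log2 fold change of the 4 was 0.12 in PQ and -0.35 in NAC against control. Of 8 oligodendrocyte markers 4 were tested and 2 were higher in NAC (879 and 970 CPM in PQ, 1061 and 1103 CPM in NAC, and 1034 and 1003 CPM in control). Endothelial and microglial markers were tested for 2 of 10 and 3 of 10, with 1 higher in PQ, Flt1, and 1 higher in NAC, P2ry12. Of these lists Flt1 had 778 to 1167 counts in a library, P2ry12 30 to 97, Egfl7 27 to 49 and Cx3cr1 19.8 to 33.9, while Cldn5 and Tyrobp had 0 in all libraries. The part of these changes in the levels of the respiratory chain genes was not tested.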

How the data were processed

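RNA of neural stem and progenitor cell cultures was extracted with TRIZOL and sequenced on the BGISEQ-500, per the labels' protocols. These list both rRNA depletion and oligo dT selection and do not tell which one was used. Tools named, per the submitters' processing notes, are RSEM, Bowtie2 2.2.5 and HISAT2 2.0.4, with the mm10 build and no role for each. Each gene has an FPKM value and an expected count in the deposited tables, per the file headers. The authors' expected counts are estimates, and 20.9% to 21.4% of the values in a library were not whole. Of the 77 genes 2, Ndufs1 and Atp5j2, had such values.

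Gene identifiers were matched to symbols in RefSeq (17199 of 17254). Of 106 matching symbols in the annotation, 83 were in the tables, and the others, 18 of them pseudogenes, were not analysed here. The rounded counts of all 6 libraries went into edgeR 4.0.16 (R 4.3.3), with filterByExpr (minimum count 10, minimum total 15), TMM factors, 1 mean per group, 3 residual degrees of freedom and Benjamini-Hochberg adjustment over 12813 genes. SE was derived from the log2 fold change and the F statistic as |log2 fold change|/√F. Alternatives used limma 3.58.1 on log2(FPKM + 1) or log2(FPKM + 0.1), DESeq2 1.42.0, library size alone, no filter, a robust fit, only the 2 groups compared, and each library left out. Replicate numbers follow sample order. Whether the runs of library numbers in the titles are batches is not given in the labels, and a fit with the run as a block was added after seeing the data. Exon overlap was read from GENCODE for 75 of the 77 genes: 19 share exonic bases with a tested gene, 18 of them only on the opposite strand, and whether counting used the strand is not given in the sources used here. Data were simulated at the same depth, with each gene given the spread typical of its level and 50 genes changed at each fold. Far fewer genes changed than were called here, and the changed genes could be of lower level than any of the 77. The shares found may thus not carry over. In PQ against control, 20% of genes changed 1.25-fold and 68% of those changed 1.5-fold were called (12683 genes). In NAC against control it was 12% and 80% (12664 genes), and in PQ against NAC 24% and 72% (12688 genes).

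The genes and lists were chosen with earlier results of these data known. Named are, in each comparison and complex, every gene past the threshold up to 6, otherwise the 6 with the largest change, a set of core genes and tissue forms, and up to 3 called genes per list, by p. Ndufa6, Ndufs7, Sdhc, Cox6c, Atp5g1 and Atp5g3, genes gained under alternatives and some further list members were added after their values were seen.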

Additional observations from a re-analysis of the deposited data

How the results depend on the processing

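Of 29 calls of a gene in a comparison, 12 passed under all 14 alternatives, and each of the other 17 missed the threshold in at least 1 with its direction kept. In PQ against control the number of genes higher was 9 with library size alone, 9 with limma on log2(FPKM + 1) and 9 with log2(FPKM + 0.1), against 5, and 0 to 7 with 1 library left out. In NAC against control it was 1 with limma at either pseudocount, against 0, and 0 to 1 with 1 library left out, while the number lower was 3 to 10 with 1 library left out, against 5. In PQ against NAC, leaving out 1 library gave 10 to 20 genes higher, against 17, and 0 to 2 lower, against 2. The members' median in PQ against control was -0.0372 without control replicate 1 and up to 0.0921 without control replicate 2. With 1 library left out, the log2 fold change of some genes that were not called changed sign: Ndufs1 in PQ against control ranged from -0.0392 (without control replicate 1) to 0.235, Atp5a1 from -0.0054 (without control replicate 2) to 0.0674 in PQ against control and from -0.0302 (without control replicate 2, -0.0112 without NAC replicate 1) to 0.043 in NAC against control, Ndufa4 in PQ against NAC from -0.0828 to 0.0631 (without PQ replicate 1, 0.0089 without NAC replicate 2), and Uqcrfs1 in PQ against NAC from -0.0976 (without PQ replicate 1, -0.0242 without NAC replicate 1) to 0.1319. Genes with an estimate above 0 in NAC against control numbered 16, and 25 with library size alone. The cause of these changes was not tested. A group left with 1 library is assumed to vary like the others. Library numbers in the titles form 2 runs, 8 to 10 and 11 to 13, each with 1 library of every group, and the labels do not say whether a run is a batch. The deviations of same-run libraries from their group means correlated, over 12813 genes, at -0.068 for PQ and control, -0.112 for NAC and control and 0.112 for PQ and NAC, so the runs were not taken as pairs. With the run as a replicate block, an alternative chosen after seeing the data that leaves 2 residual degrees of freedom, PQ against control had 5 genes higher (Cox8a in, Atp5l out), NAC against control had 4 lower, and PQ against NAC had 14 higher and 1 lower, against 2. With 2 libraries a group, changes under 1.5-fold are often missed, so a gene that did not pass is not shown to be equal between groups.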
